A study of Mus musculus with 34 samples.

Results

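The iron handling genes described here are 10 genes out of the 23509 in each count table, chosen by name as the listed genes of iron uptake, storage and export and read in all 34 mouse kidney libraries. They are *Tfrc*, *Trf*, *Slc11a2*, *Steap3*, *Fth1*, *Ftl1*, *Slc40a1*, *Heph*, *Cp* and *Ireb2*. The study asked what the anti-miR-17 oligonucleotide RGLS4326 does in polycystic kidney disease. The kidney RNA read here came from 3 groups of mice on a C57BL6 background, all harvested on postnatal day 28 (P28). *Pkd2*-KO mice received subcutaneous PBS (n = 11) or RGLS4326 at 20 mg per kg (n = 11) on P10, P11, P12 and P19. Untreated, non-transgenic mice (UNT, n = 12) were labelled wild type and received no injection, so genotype and injection cannot be told apart between UNT and PBS. The labels spell the genotype "Pdk2KO", and the study describes the model as floxed *Pkd2* with a Pkhd1/cre driver, which acts mainly in collecting ducts, so most other kidney cells keep the gene. The labels give no sex. The study's own text describes a smaller PBS group for this sequencing, and all labelled libraries were used here. The study also sequenced *Pkd2*-KO kidneys given a control oligonucleotide, and kidneys of another mouse model, which are not among these libraries. Between RGLS4326 and PBS, miR-17 inhibition and a general effect of an injected oligonucleotide therefore cannot be told apart here.

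Iron circulates in plasma bound to transferrin, enters cells when transferrin binds the transferrin receptor, is reduced in the endosome and passes into the cytosol through the divalent metal transporter. Inside the cell it is stored in a shell of ferritin heavy and light chains, or leaves through ferroportin with the help of copper-containing ferroxidases. In the kidney, tubule cells reclaim filtered iron, and macrophages recycle iron from engulfed red cells. Much of this control acts on RNA: when iron is scarce, iron regulatory proteins bind a short hairpin, the iron responsive element (IRE). In a 5′UTR such a hairpin blocks translation without the mRNA level having to change, and in the *Tfrc* 3′UTR it protects the mRNA from decay. The counts below measure mRNA levels only.

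The hairpins that give these genes their shared control were read from the GENCODE M21 transcripts on build GRCm38, the build of the counts. The pattern searched was a C, a stem arm of 5 bases, a loop of CAGUG and a base other than G, and 5 bases that pair with the first arm, G with U allowed, with or without 1 unpaired base in the second arm, on the transcript strand. Of the 10 genes, 5 held it, and it is shown with the 6 loop bases in capitals because its side of the coding sequence sorts storage and export from uptake.
Fth1 5′UTR: uuccugcuucaaCAGUGCuugaacggaacc
Ftl1 5′UTR: gucuugcuucaaCAGUGUuugaacggaaca
Slc40a1 5′UTR: caacuucagcuaCAGUGUuagcuaaguuug
Tfrc 3′UTR, the first of 4: aauuaucggaagCAGUGCcuuccauaauua
Slc11a2 3′UTR, with 1 unpaired base: agccaucagagcCAGUGUguuucuaugguu
The loops lie at chr19:9982744-9982749 (plus strand), chr7:45459790-45459795 (minus), chr1:45925476-45925481 (minus), chr16:32631231-32631236 (plus) and chr15:100395164-100395169 (minus). Over all genes with an annotated UTR, 0.254% of 20856 held the pattern in a 5′UTR and 1.24% of 21037 in a 3′UTR. *Trf*, *Steap3*, *Cp*, *Heph* and *Ireb2* held no match to these letters in an annotated UTR.

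RGLS4326 is complementary to the seed of miR-17, the bases from position 2 to 8 with which a microRNA pairs to 3′UTRs. The mature sequence from RefSeq (GRCm38.p6, chr14:115043684-115043706, plus strand) is printed with the seed in capitals, followed by its matches in the members' 3′UTRs (for each member the longest one annotated), with the matched bases in capitals.
mmu-miR-17-5p: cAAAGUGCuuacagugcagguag
Slc40a1 3′UTR, first match: uaacuuuugauGCACUUUcauggagacug
Slc40a1 3′UTR, second match: cauugcugugaGCACUUUcuuugucguuc
Slc11a2 3′UTR: aacaccgaaaaCACUUUAugauggagccu
Steap3 3′UTR: gcagaggugccCACUUUAgcaaggauacc
The search, on the transcript strand, took GCACUUU (pairing with the whole seed) or CACUUUA (pairing with all but its last base, followed by an A), and a site that holds both was counted once. A match was present in 3 of the 10 genes against 18.6% of 21037 annotated 3′UTRs, and *Slc40a1* was the member with 2, where 3.9% of all 3′UTRs held 2 or more. Its matches start 38 bases apart in a 3′UTR of 1338 bases, at chr1:45908313-45908319 and chr1:45908275-45908281 on the minus strand. Those of *Slc11a2* and *Steap3* lie at chr15:100392608-100392614 and chr1:120225409-120225415. A match is a description of the letters and not evidence that miR-17 binds there.

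Between 17603122 and 54981992 reads per library fell in genes, and the lowest count of any member in any library was 236, so the spread between mice rather than counting error limited the precision. Library numbering in the table names restarts, which splits the mice into 3 library sets, each holding all groups. *Pkd2* itself averaged 274 CPM (read counts scaled to a common library size) ± 34.4 (SD, n = 12) in UNT and 160.1 ± 32.2 (SD, n = 11) in PBS kidneys, with no overlap between those groups at this scaling, and 209.8 ± 23.8 (SD, n = 11) after RGLS4326. In whole kidney, fewer cells of a type and less RNA per cell cannot be told apart. The share of a library's reads that fell in no gene differed between the groups (values below), and fits with this share as a term are called the no-gene covariate. Its UNT and PBS ranges did not overlap, so between UNT and PBS this term cannot be told apart from group. The PBS library of replicate 9 stood apart: among PBS mice it had the highest *Fth1* and *Ftl1* and the lowest *Tfrc*, *Ireb2*, *Slc40a1*, *Slc11a2*, *Cp* and *Heph*, and members' calls that depend on it are given with and without it.

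*Cp*, *Trf*, *Steap3* and *Slc40a1* were higher in PBS than in UNT mice, *Tfrc*, *Ireb2*, *Slc11a2* and *Fth1* were lower, and *Ftl1* and *Heph* did not pass the test. With edgeR's quasi-likelihood test and Benjamini-Hochberg adjustment over 15644 tested genes, 8 of 10 members were called at an adjusted p under 0.05, where 82.1% of all genes were, 43.1% higher and 39% lower. Cystic kidneys differed from normal ones at most genes, and the share of iron genes called is near that background. The median log2 difference was -0.11 over the members and 0.04 over all tested genes, and the median absolute difference was 0.64 and 0.60. UNT and PBS mice did not overlap for 4 members (*Tfrc*, *Trf*, *Slc11a2* and *Cp*), against 42.5% of all genes. All ranges and overlaps are given at the reported scaling, and narrow separations depend on it. As a share of all reads in genes, *Slc11a2* in PBS replicate 6 (2495 of 28063835) lay above UNT replicate 8 (3187 of 41883722). *Tfrc* in PBS replicate 1 (2532 of 24226637) likewise lay above UNT replicate 11 (2966 of 31154963).

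After RGLS4326, the members that passed the test against PBS were *Slc40a1*, *Heph*, *Ireb2* and *Tfrc*, all higher, and *Ftl1* and *Trf*, both lower. These are 6 of 10 members where 33.8% of all genes were called, 15.3% higher and 18.5% lower. The median absolute log2 difference was 0.34 over the members and 0.19 over all tested genes, with signed medians of 0.02 and 0.00. At the reported scaling, every RGLS4326 mouse lay above every PBS mouse for *Slc40a1*, by a narrow margin that scaling by library totals removes (values below). Such separation held for 0.0639% of tested genes (10 genes). Against UNT all 10 members were called after RGLS4326, 5 higher and 5 lower, where 77.7% of all genes were called, 40.8% higher and 36.9% lower, and 5 members had groups that did not overlap (*Tfrc*, *Trf*, *Slc40a1*, *Cp* and *Fth1*) against 36.7% of genes. For *Tfrc* and *Fth1* this separation from UNT also depends on the scaling (values below). Scaled by library totals alone, 8 of 10 members were called against UNT, without *Slc11a2* (-0.04, adjusted p = 0.452 by edgeR) and *Ireb2* (-0.07, adjusted p = 0.607). PBS mice enter both comparisons with PBS, so a high or low PBS value moves them in opposite directions.

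**Figure D1:**
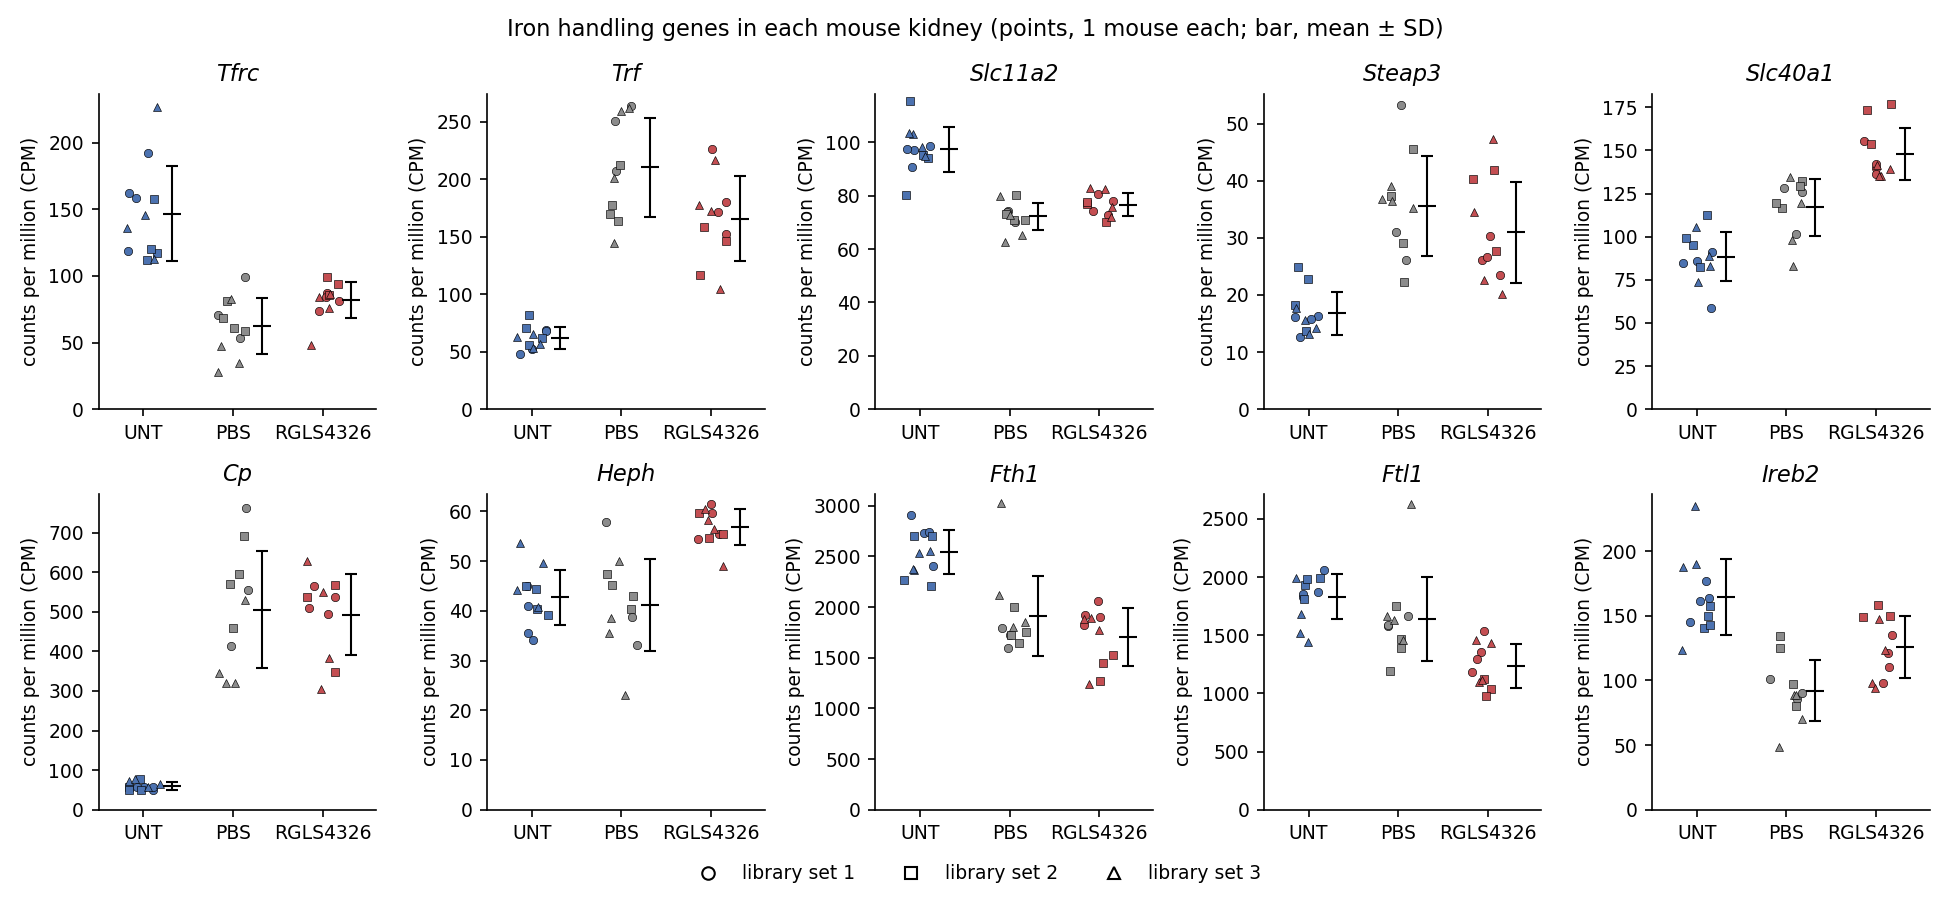
Level of each iron handling gene in CPM (vertical axis, from 0) in every mouse of the UNT, PBS and RGLS4326 groups, with the mean and SD beside the points and the 3 library sets as circles, squares and triangles. *Cp* and *Trf* separate UNT from both Pkd2-KO groups, *Slc40a1* climbs over the 3 groups (means 88.4, 117.1 and 148.1 CPM), and *Heph* has its highest mean in the RGLS4326 mice (mean 56.9 CPM against 42.7 in UNT and 41.2 in PBS).

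The carrier and its receptor moved in opposite directions in cystic kidneys. *Trf* (chr9:103204001-103230444, minus strand) encodes transferrin, the plasma iron carrier, made mainly by liver. In GENCODE 63.5% of its exonic length is shared with *Gm20425* on the same strand, so its counts and level per kilobase are uncertain where the counting held both genes. It ranged from 48.1 to 82.3 CPM in UNT mice (median 62.2), from 144.6 to 263.8 in PBS mice (median 207.3) and from 104.4 to 226.4 after RGLS4326 (median 171.5). Every *Pkd2*-KO mouse lay above every UNT mouse, while the RGLS4326 range sat lower than the PBS range with broad overlap. The PBS level was 3.38-fold that of UNT (log2 difference 1.76 ± 0.117 SE, edgeR adjusted p = 4.83e-16), and the RGLS4326 level was 1.27-fold lower than PBS (-0.34 ± 0.117, adjusted p = 0.0241), with 9 of 11 treated mice under the PBS median. The treated level remained 2.67-fold above UNT (1.41 ± 0.116). Without PBS replicate 9 the difference from PBS was -0.30 with an adjusted p of 0.05, just on the other side of the threshold, and it also lost its call without RGLS4326 replicate 6.

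*Tfrc* (chr16:32608920-32632794, plus strand) encodes the transferrin receptor, whose mRNA carries the 3′ hairpins shown above. It ranged from 112.2 to 226.9 CPM in UNT mice (median 141.1), from 28.2 to 99.2 in PBS mice (median 60.8) and from 48.1 to 99.2 after RGLS4326 (median 84.2). At the reported scaling no *Pkd2*-KO mouse reached the lowest UNT mouse, and 10 of 11 treated mice lay above the PBS median. As a share of all reads in genes, RGLS4326 replicate 7 (3374 of 29845111) lay above UNT replicate 11 (2966 of 31154963). The PBS level was 2.35-fold lower than UNT (log2 difference -1.24 ± 0.155 SE, adjusted p = 5.28e-09). The RGLS4326 level was 1.31-fold that of PBS (0.39 ± 0.156, 95% confidence interval 0.08 to 0.71, adjusted p = 0.0494 by edgeR), still 1.79-fold under UNT. That call stood at the edge of the threshold: it was lost in 25 of the 34 fits that left out a single library, with a log2 difference of 0.33 (adjusted p = 0.0809) without PBS replicate 9.

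The pair of endosomal proteins that follow the receptor also split. *Steap3* (chr1:120190757-120272705, minus strand), a ferrireductase that acts on iron released from transferrin, had the lowest level per kilobase of the 10 in every group. It ranged from 12.6 to 24.9 CPM in UNT mice (median 15.9), from 22.2 to 53.2 in PBS mice (median 36.4) and from 20.2 to 47.4 after RGLS4326 (median 27.6). All but 1 of the 11 PBS mice lay above every UNT mouse, and the treated and PBS ranges overlapped almost fully. PBS kidneys held 2.12-fold the UNT level (1.08 ± 0.142 SE, adjusted p = 1.27e-08 by edgeR), and the difference of RGLS4326 from PBS was -0.20 (95% confidence interval -0.49 to 0.09, adjusted p = 0.278).

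*Slc11a2* (chr15:100387898-100425072, minus strand) encodes the divalent metal transporter DMT1, which moves ferrous iron out of the endosome and across the apical membrane of tubule cells. It ranged from 80.4 to 115.7 CPM in UNT mice (median 97.3), from 62.8 to 80.2 in PBS mice (median 72.6) and from 70.3 to 83.0 after RGLS4326 (median 76.8). At the reported scaling PBS and UNT mice did not overlap, and the treated mice sat inside and slightly above the PBS range. PBS kidneys held 1.35-fold less than UNT (-0.43 ± 0.0476 SE, adjusted p = 2.83e-10 by edgeR), and the interval of the RGLS4326 difference from PBS ran from -0.01 to 0.19 (0.09, adjusted p = 0.157). Across the 4 uptake genes, PBS kidneys showed 2 higher and 2 lower than UNT (43.1% and 39% of all genes), and RGLS4326 kidneys 1 higher, 1 lower and 2 not called against PBS (15.3% higher and 18.5% lower of all genes).

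Both storage genes were abundant, and both were below UNT after treatment. *Fth1* (chr19:9980598-9985098, plus strand) encodes ferritin heavy chain, the subunit that oxidises iron as it enters the shell. It ranged from 2211 to 2914 CPM in UNT mice (median 2542), from 1594 to 3027 in PBS mice (median 1793) and from 1239 to 2064 after RGLS4326 (median 1821). Of the PBS mice, 10 of 11 lay below every UNT mouse and the remaining one, replicate 9, above them all. PBS kidneys held 1.33-fold less than UNT (-0.41 ± 0.0951 SE, adjusted p = 0.00019 by edgeR), although this call was lost when libraries were scaled by their totals alone (-0.12, adjusted p = 0.207) and in library set 3 alone (-0.16, adjusted p = 0.481), and the difference was -0.77 with the no-gene covariate. RGLS4326 and PBS differed by -0.17 (95% confidence interval -0.36 to 0.03, adjusted p = 0.173) and, without PBS replicate 9, by -0.07 (adjusted p = 0.497), and at the reported scaling the treated mice lay wholly under the UNT mice (1.49-fold lower, adjusted p = 1.43e-06). As a share of all reads in genes, RGLS4326 replicate 4 (37255 of 17603122) lay above UNT replicate 12 (42355 of 20823992).

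*Ftl1* (chr7:45457944-45459884, minus strand) encodes ferritin light chain, the subunit that favours mineral formation in the shell. It ranged from 1438 to 2064 CPM in UNT mice (median 1860), from 1192 to 2632 in PBS mice (median 1585) and from 974.7 to 1539 after RGLS4326 (median 1181). All 11 treated mice lay below the PBS median and 6 of them below every PBS mouse. RGLS4326 kidneys held 1.33-fold less than PBS (-0.41 ± 0.099 SE, adjusted p = 0.00501 by edgeR) and 1.48-fold less than UNT (-0.57 ± 0.0973, adjusted p = 2.79e-06). The call against PBS was lost with the no-gene covariate (-0.23, adjusted p = 0.173), and the length offset described below gave -0.22. PBS and UNT differed by -0.16 (95% confidence interval -0.36 to 0.04, adjusted p = 0.125). Without PBS replicate 9, the difference of PBS from UNT was -0.28 (adjusted p = 0.00138), and scaling by totals alone gave 0.13, the opposite sign. PBS was also called lower than UNT in sets 1 (-0.28, adjusted p = 0.0263) and 2 (-0.45, adjusted p = 0.00436) alone. The no-gene covariate gave -0.53 (adjusted p = 0.000152), but between UNT and PBS that term cannot be told apart from group.

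At the reported scaling, ferroportin was the member whose RGLS4326 and PBS mice did not overlap. *Slc40a1* (chr1:45908068-45926523, minus strand) encodes ferroportin, the cellular iron exporter, whose mRNA holds the 5′ hairpin and the 2 seed matches printed above. It ranged from 58.5 to 112.6 CPM in UNT mice (median 87.4), from 82.7 to 134.8 in PBS mice (median 119.5) and from 135.1 to 177.1 after RGLS4326 (median 141.4). The lowest treated mouse lay just above the highest PBS mouse, so the groups did not overlap by a narrow margin. That separation depends on the scaling. As a share of all reads in genes, PBS replicate 8 (5681 of 38293853) lay above RGLS4326 replicate 9 (3693 of 25551168). PBS kidneys held 1.32-fold the UNT level (0.41 ± 0.0836 SE, adjusted p = 4.04e-05 by edgeR, a call lost in library set 3 alone, 0.31, adjusted p = 0.0862), and RGLS4326 kidneys 1.26-fold the PBS level (0.34 ± 0.0854, 95% confidence interval 0.17 to 0.51, adjusted p = 0.00573). The treated kidneys were thus further from UNT than the PBS kidneys were (1.67-fold, adjusted p = 5.48e-10). In each of the 34 fits without a single library the call against PBS held (log2 difference 0.31 to 0.36, adjusted p 0.00308 to 0.0138). It was lost with the no-gene covariate (0.24, adjusted p = 0.144) and in sets 1 (0.28, adjusted p = 0.245) and 3 (0.34, adjusted p = 0.269) alone.

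Of the 3 members with a seed match, *Slc40a1* was called against PBS, and *Slc11a2* and *Steap3*, with 1 match each, were not. *Tfrc*, *Heph* and *Ireb2* held none in the longest 3′UTR and were higher. Of the 10 tested genes whose RGLS4326 and PBS mice did not overlap, 4 held a match (*Slc40a1*, *Mink1*, *Tnks2* and *Gnb4*, all higher), and 21.2% of 14193 tested genes with a 3′UTR did. The 10 genes were picked by their values in these same mice, and the list depends on the scaling, so the shares were not compared by a test. Those genes other than *Slc40a1* were named after their values were seen. *Mink1* belongs to the study's own miR-17 target signature, whose genes were chosen for rising after anti-miR-17 treatment of cells.

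*Heph* (chrX:96455359-96574485, plus strand) encodes hephaestin, a membrane ferroxidase that works with ferroportin. It ranged from 34.2 to 53.6 CPM in UNT mice (median 42.6), from 23.1 to 57.8 in PBS mice (median 40.3) and from 49.1 to 61.6 after RGLS4326 (median 56.4). UNT and PBS mice overlapped throughout, while all 11 treated mice lay above the median of either group and 10 of them above every UNT mouse. PBS and UNT differed by -0.05 (95% confidence interval -0.24 to 0.13, adjusted p = 0.598), which turned to 0.24 and passed the test (adjusted p = 0.0146) when libraries were scaled by totals alone. RGLS4326 kidneys held 1.38-fold the PBS level (0.46 ± 0.094 SE, adjusted p = 0.0018 by edgeR) and 1.33-fold the UNT level (0.41 ± 0.0918, adjusted p = 0.000129). By p-value against PBS it ranked 157 among 15644 genes, ahead of *Ftl1* at 703 and *Slc40a1* at 936.

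*Cp* (chr3:19957054-20009145, plus strand) encodes ceruloplasmin, the secreted ferroxidase and an acute-phase protein. It ranged from 50.3 to 78.3 CPM in UNT mice (median 57.0), from 319.6 to 762.1 in PBS mice (median 530.9) and from 304.9 to 629.1 after RGLS4326 (median 536.4). Every *Pkd2*-KO mouse exceeded every UNT mouse several times over, and the treated and PBS ranges overlapped broadly. PBS kidneys held 8.32-fold the UNT level (3.06 ± 0.144 SE, adjusted p = 2.82e-20 by edgeR) and RGLS4326 kidneys 8.11-fold. The interval of the treated difference from PBS, -0.31 to 0.24, leaves room for a change of either sign (-0.04, adjusted p = 0.849). Of the 3 export genes, 2 were called higher in PBS than in UNT (43.1% of all genes), 2 after RGLS4326 than in PBS (15.3%) and 3 after RGLS4326 than in UNT (40.8%).

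*Ireb2* (chr9:54863789-54912530, plus strand) encodes iron regulatory protein 2, which binds the hairpins when iron is low and is itself degraded when iron is plentiful. It ranged from 123.9 to 234.9 CPM in UNT mice (median 159.3), from 48.3 to 134.2 in PBS mice (median 88.9) and from 94.1 to 158.3 after RGLS4326 (median 123.5). The treated mice overlapped both other groups, and all 11 were above the PBS median and all 11 below the UNT median. PBS kidneys held 1.79-fold less than UNT (-0.84 ± 0.123 SE, adjusted p = 1.36e-07 by edgeR), and RGLS4326 kidneys 1.37-fold the PBS level (0.45 ± 0.125, adjusted p = 0.00886, a call lost with the no-gene covariate, 0.23, adjusted p = 0.257) and 1.31-fold less than UNT (-0.39 ± 0.122, adjusted p = 0.00477). The call of RGLS4326 against UNT was lost with scaling by totals alone (-0.07, adjusted p = 0.607) and with the no-gene covariate (-0.19, adjusted p = 0.145), and the sign turned in library set 2 alone (0.0257, adjusted p = 0.886). The call of PBS against UNT held, but its size varied. It was -0.42 with the no-gene covariate (adjusted p = 0.0139), -0.47 in set 2 alone (adjusted p = 0.00781) and -1.32 in set 3 alone (adjusted p = 0.000162). *Ireb2* encodes a regulator whose activity is set by protein stability, which these counts do not measure.

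**Figure D2:**
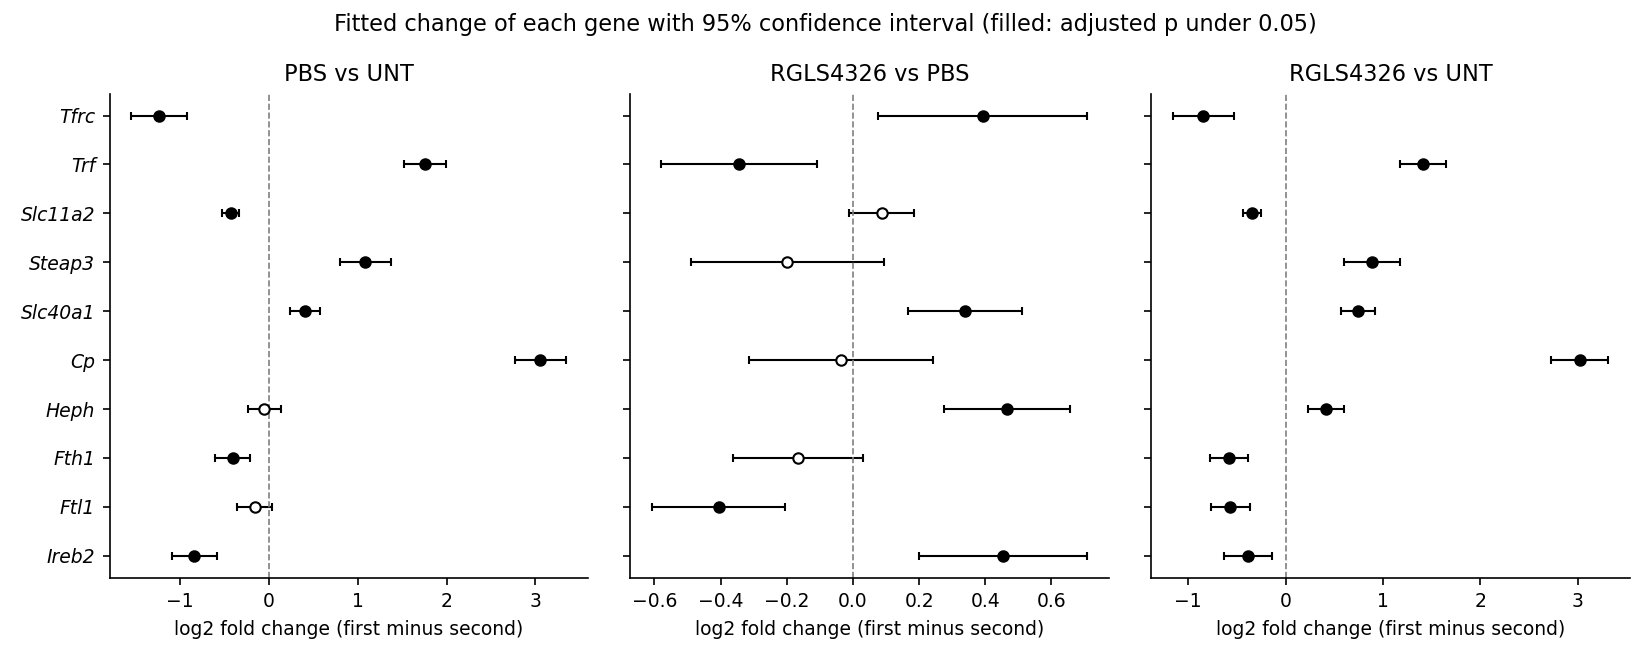
Fitted log2 fold change of the 10 genes (horizontal axis, first group minus second) with 95% confidence intervals for PBS against UNT, RGLS4326 against PBS and RGLS4326 against UNT, filled points having an edgeR adjusted p under 0.05. Between PBS and UNT the values run from -1.24 (*Tfrc*) to 3.06 (*Cp*), and between RGLS4326 and PBS from -0.41 (*Ftl1*) to 0.46 (*Heph*).

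Ratios within a mouse do not depend on the scaling between libraries, and are given as descriptions without a test. The log2 ratio of *Tfrc* to *Fth1* counts, uptake against storage, averaged -4.14 ± 0.312 (SD, n = 12) in UNT, -5.001 ± 0.726 (SD, n = 11) in PBS and -4.38 ± 0.454 (SD, n = 11) in RGLS4326 kidneys. It ran from -4.62 to -3.48, from -6.75 to -4.18 and from -5.29 to -3.68, so the groups overlapped, and the treated mean lay between the other means. The pair differs in mRNA length (4890 and 929 bases), and changes after treatment moved with length, as given below. With the length offset described there, RGLS4326 and PBS differed by 0.32 for *Tfrc* and 0.0157 for *Fth1*, against 0.39 and -0.17 without it. The log2 ratio of *Fth1* to *Ftl1*, heavy to light chain, averaged 0.48 ± 0.187 in UNT, 0.23 ± 0.195 in PBS and 0.46 ± 0.168 in RGLS4326 kidneys. Light chain took on average a larger share of ferritin mRNA in PBS mice, although their range (-0.02 to 0.56) overlapped that of both other groups.

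**Figure D3:**
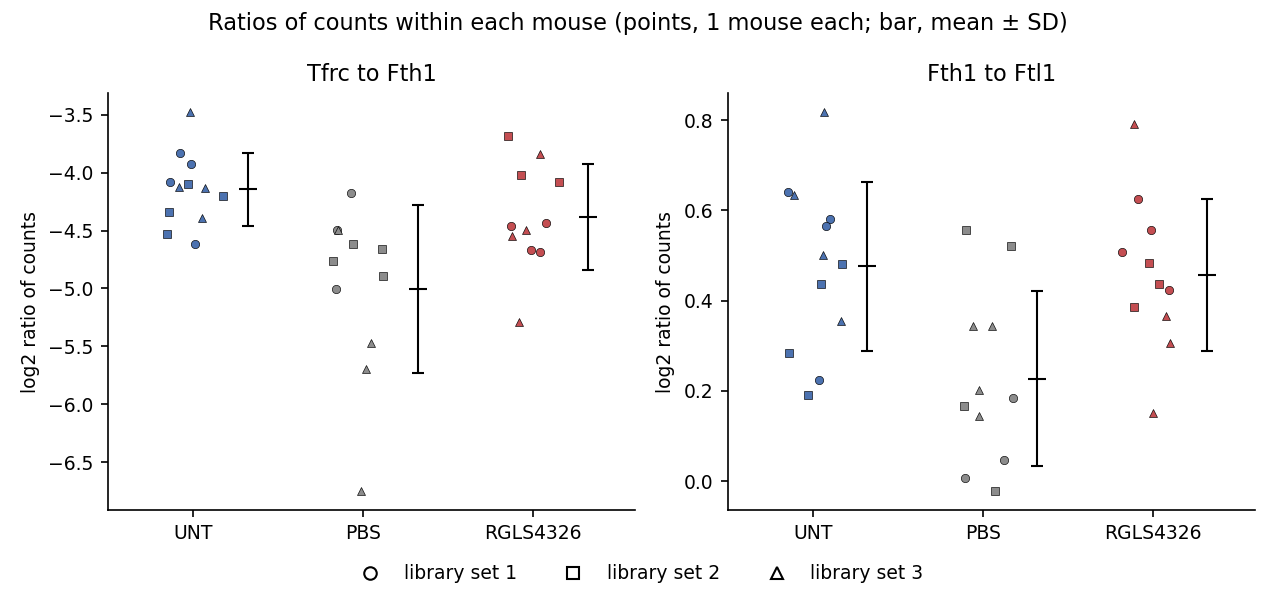
Log2 ratio of read counts within each mouse (vertical axis) for *Tfrc* to *Fth1* and for *Fth1* to *Ftl1*, by group, with mean and SD and the library sets as circles, squares and triangles. The group means are -4.14, -5.001 and -4.38 for the first pair and 0.48, 0.23 and 0.46 for the second.

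Per kilobase of the annotated mRNA, ferritin stood far above the rest in every group. *Fth1* averaged 2736 CPM per kb ± 234.9 (SD, n = 12) and *Ftl1* 1892 ± 201.1 in UNT kidneys. Below them *Tfrc* (30.01 ± 7.26), *Ireb2* (28.5 ± 5.13), *Slc40a1* (26.2 ± 4.24), *Trf* (24.2 ± 3.72) and *Slc11a2* (22.1 ± 1.89) formed a run in which neighbours did not differ beyond their spread, followed by *Cp* (13.5 ± 2.26), *Heph* and *Steap3* (3.25 ± 0.726). In PBS kidneys *Cp* (112.3 ± 33.0, n = 11) and *Trf* (81.8 ± 16.9) took the places after ferritin and *Tfrc* (12.8 ± 4.31) moved to place 8. The order in RGLS4326 kidneys differed from that in PBS kidneys by an exchange of *Slc11a2* and *Ireb2*, whose values lay within their spread of each other in PBS mice. These values use transcript lengths from GENCODE and are levels, not differences.

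Changes between RGLS4326 and PBS moved with transcript length over all genes. The 14193 tested genes with a known length were split into 4 classes of near equal size. In the shortest (254 to 1930 bases) the median log2 difference was -0.14, with 174 genes called higher and 1199 lower. In the longest (4547 bases and more) it was 0.13, with 998 higher and 188 lower. *Ftl1* (968 bases) and *Fth1* (929) belong to the first class, and *Tfrc* (4890), *Ireb2* (5770) and *Steap3* (5158) to the last, while *Slc40a1* (3370), *Heph* (3904), *Slc11a2* (4415) and *Cp* (4504) lie in the third class, where the median was 0.02. When each library's trend with length was taken out, *Slc40a1* (0.32, edgeR adjusted p = 0.00678) and *Heph* (0.43, adjusted p = 0.00192) stayed almost as large. *Ireb2* was 0.33 (adjusted p = 0.0139), *Trf* -0.32 (adjusted p = 0.0354) and *Ftl1* -0.22 (adjusted p = 0.0115, against -0.41 without the offset), and *Tfrc* lost its call (0.32, adjusted p = 0.0959). *Fth1* changed sign to 0.02 (adjusted p = 0.879).

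The share of all reads tallied by the counter that fell in no gene moved with the groups as well. It ran from 9.84% to 11.3% in UNT, from 5.18% to 8.995% in PBS and from 4.94% to 12.0% in RGLS4326 libraries. UNT and PBS libraries did not overlap in it, so the covariate's values for PBS against UNT cannot be told apart from group. With this share as a covariate, *Heph* was the only member still called between RGLS4326 and PBS, 89 of all tested genes were called in place of 5280, and the sizes of *Slc40a1* (0.24), *Ireb2* (0.23), *Ftl1* (-0.23), *Tfrc* (0.30) and *Trf* (-0.14) shrank. The median share was 6.62% in PBS and 8.38% in RGLS4326 libraries, and its part in these results was not tested.

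Within the library sets, each member called between RGLS4326 and PBS kept its direction in all 3. *Slc40a1* differed by 0.28, 0.45 and 0.34 in sets 1, 2 and 3, and *Heph* by 0.43, 0.38 and 0.61. *Ireb2* differed by 0.34, 0.49 and 0.65, *Ftl1* by -0.25, -0.46 and -0.53, *Trf* by -0.39, -0.35 and -0.37, and *Tfrc* by 0.14, 0.48 and 0.61. With 3 or 4 mice per group, no member was called in set 1 or set 3 alone, where 54 and 0 of all genes were, while 5 members and 4065 genes were called in set 2 alone. The interaction of library set and group was called for no member (edgeR adjusted p of at least 0.192) and for 0 genes at all, with 1126 genes at an unadjusted p under 0.05 for the treatment contrast, *Fth1* among them (p = 0.0204 from the edgeR fit). For PBS against UNT the unadjusted count was 2858 genes, with *Ireb2* (p = 0.00558), *Cp* (p = 0.00935) and *Ftl1* (p = 0.03, edgeR) among them.

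**Figure D4:**
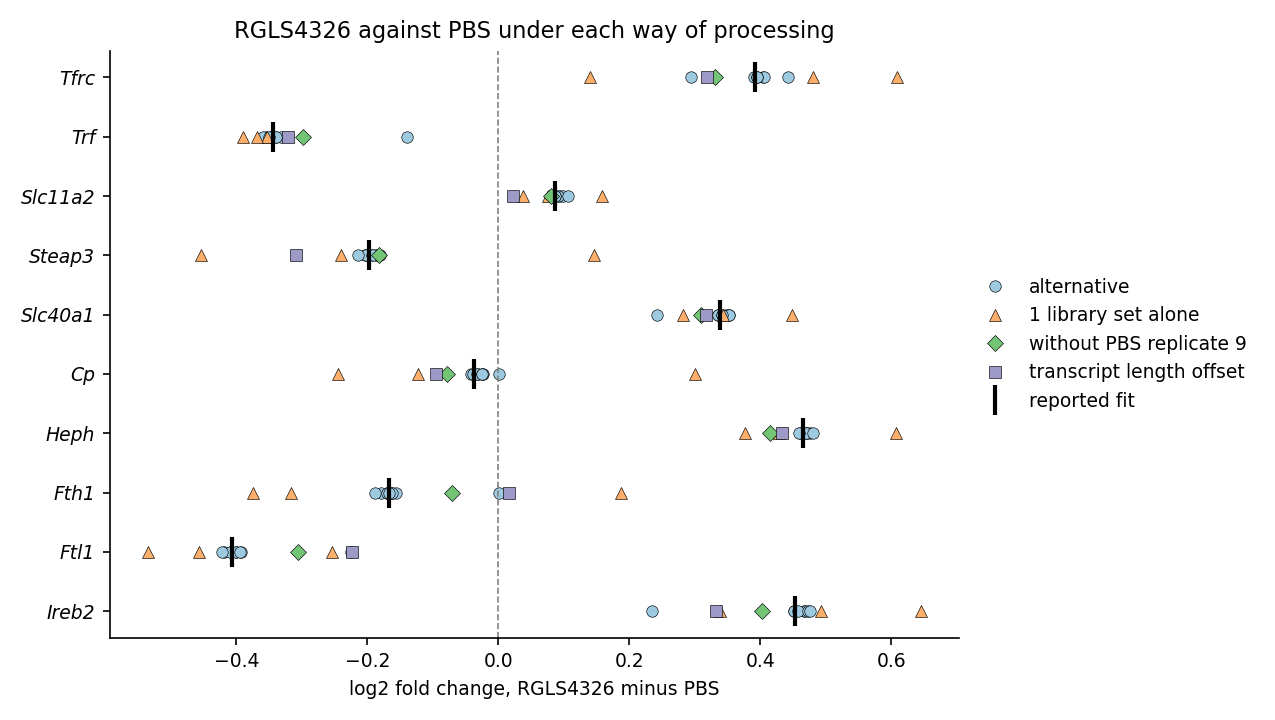
Log2 fold change of RGLS4326 minus PBS (horizontal axis) for each gene in the reported fit (bar) and in the other ways of processing, with single library sets as triangles, the fit without PBS replicate 9 as a diamond and the transcript length offset as a square. *Slc40a1*, *Heph*, *Ireb2* and *Tfrc* stay right of 0 and *Ftl1* and *Trf* left of it in all of them, while *Steap3*, *Cp* and *Fth1* fall on both sides.

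Markers of several cell types moved with the groups, and their part in the iron gene results was not tested. Summed proximal tubule markers ran from 8760 to 12300 CPM in UNT, 652 to 2570 in PBS and 1660 to 2800 in RGLS4326 kidneys, with 6 of 6 lower in PBS than UNT and 4 of 6 higher after RGLS4326 than PBS. Macrophage markers ran from 93.4 to 154, from 567 to 1420 (the highest in PBS replicate 9) and from 533 to 1010, with 7 of 7 higher in PBS than UNT and 3 of 7 lower after RGLS4326. Collecting duct markers ran from 482 to 840, 788 to 2210 and 413 to 1920, with 4 of 4 higher in PBS and 3 of 4 lower after RGLS4326.

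Hepatocyte markers ran from 106 to 223 CPM in UNT, 64.4 to 180 in PBS and 90.2 to 174 in RGLS4326 kidneys, with 1 of 5 higher and 3 of 5 lower in PBS than UNT, and 1 of 5 higher after RGLS4326 than in PBS. Red cell markers summed to 62 to 119, 10.2 to 27.2 and 14.7 to 26.2 CPM, and the globin genes *Hbb-bs*, *Hbb-bt*, *Hba-a1* and *Hba-a2* had at most 24 counts in any library. Only 2 of the 7 red cell markers were tested, both lower in PBS than UNT and neither called between RGLS4326 and PBS. Fibroblast markers (340 to 982, 2120 to 4520 and 2880 to 4280 CPM) and proliferation markers (32.8 to 172, 113 to 193 and 135 to 253) were 4 of 4 higher in PBS than UNT and 0 of 4 called after RGLS4326. Thick ascending limb and distal tubule markers (7220 to 11400, 2380 to 4690 and 3730 to 5400) were 4 of 4 lower in PBS and 3 of 4 higher after RGLS4326, and adipocyte markers (13.3 to 142, 86.4 to 395 and 49.2 to 138) 3 of 4 higher and 2 of 4 lower.

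Of 44 other listed iron genes, 40 were tested, and PBS kidneys had 13 higher and 20 lower than UNT, with 7 not called. RGLS4326 kidneys had 5 higher and 5 lower than PBS, 30 not called, and 13 higher and 21 lower than UNT. Once the no-gene share was a covariate, each of the 10 calls between RGLS4326 and PBS was lost (edgeR adjusted p from 0.0515 to 0.285), those named below included. The share called is near the background of all genes for PBS against UNT (82.1%) and below it for RGLS4326 against PBS (33.8%), while for RGLS4326 against UNT 34 of 40 were called where 77.7% of all genes were. Scaling by totals alone turned the PBS against UNT split to 19 higher and 16 lower, and without PBS replicate 9 it was 12 and 21. *Hamp*, *Hamp2*, *Hfe2* and *Ftmt*, which encode the iron hormone hepcidin, its second copy, hemojuvelin and mitochondrial ferritin, had at most 7, 34, 18 and 0 counts in any library and were not tested.

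Among other uptake and trafficking genes, 5 of 14 were higher and 7 lower in PBS than in UNT, and 2 were higher and 2 lower after RGLS4326 than in PBS. *Lcn2*, which encodes the siderophore-binding injury protein NGAL, ranged from 2.35 to 5.56 CPM in UNT, 528.7 to 1585 in PBS and 289.6 to 1062 in RGLS4326 kidneys. UNT mice lay far below all others, and treated mice overlapped the lower part of the PBS range. The fitted difference was 8.23 ± 0.257 (SE, edgeR adjusted p = 6.16e-25) between PBS and UNT and -0.80 ± 0.194 (adjusted p = 0.005) between RGLS4326 and PBS. *Mfi2*, which encodes the membrane iron-binding protein melanotransferrin, averaged 0.19 CPM ± 0.124 (SD, n = 12) in UNT, 10.98 ± 3.95 (SD, n = 11) in PBS and 8.08 ± 2 in RGLS4326 kidneys (5.82 and -0.44, adjusted p = 9.98e-21 and 0.0754). *Cubn*, which encodes cubilin, a proximal tubule receptor for filtered transferrin, averaged 649.2 ± 107, 148.4 ± 63.5 and 230.9 ± 35.7 CPM, fell by 2.13 on the log2 scale in PBS and was 0.64 higher after RGLS4326 (adjusted p = 0.00654), together with the proximal tubule markers above. The *Cubn* call against PBS was lost in sets 1 (1.06, adjusted p = 0.0836), 2 (0.31, adjusted p = 0.391) and 3 (0.67, adjusted p = 0.262) alone.

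Of 4 tested chaperone and ferritin turnover genes, 1 was higher and 2 lower in PBS than in UNT. The higher gene, *Pcbp1*, an iron chaperone (named after its values were seen), differed by 0.17 (edgeR adjusted p = 0.0151) and lost its call without PBS replicate 9 (0.13, adjusted p = 0.0532), with no filter on low counts and in each library set alone, and turned to -0.12 (adjusted p = 0.102) with the no-gene covariate. *Ncoa4*, which encodes the receptor that delivers ferritin for breakdown, averaged 112.6 ± 36.2 (SD, n = 12), 54.1 ± 10.5 (SD, n = 11) and 64.4 ± 8.88 CPM in UNT, PBS and RGLS4326 kidneys (log2 difference -1.06, edgeR adjusted p = 1.24e-08, and 0.25, adjusted p = 0.151). *Bdh2*, a dehydrogenase linked to siderophore synthesis, averaged 225.3 ± 30, 65.3 ± 16.5 and 83.9 ± 14.2 CPM, with PBS 1.79 lower than UNT (adjusted p = 2.15e-16) and RGLS4326 0.36 higher than PBS (adjusted p = 0.0169). It was the 1 gene of these 4 called after treatment. That call was lost in sets 1 (0.66, adjusted p = 0.0938), 2 (0.09, adjusted p = 0.751) and 3 (0.42, adjusted p = 0.262) alone.

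Of 6 tested regulators, 4 were higher and 1 lower in PBS than in UNT, and 1 was higher after RGLS4326. *Aco1*, which encodes iron regulatory protein 1, ranged from 555.8 to 703.2 CPM in UNT, 187.3 to 303.3 in PBS and 209.9 to 338.5 in RGLS4326 kidneys, so that no *Pkd2*-KO mouse came near the UNT mice. It was 2.72-fold lower in PBS (-1.44 ± 0.0844 SE, edgeR adjusted p = 1.4e-17), as *Ireb2*, its relative, was 1.79-fold lower, and its difference between RGLS4326 and PBS was 0.18 (adjusted p = 0.0947). *Fam132b*, which encodes the hepcidin suppressor erythroferrone, averaged 0.16 ± 0.0935, 1.12 ± 0.296 and 0.90 ± 0.292 CPM, low in all groups and higher in PBS than UNT (2.70, adjusted p = 1.02e-12). *Fbxl5*, the ubiquitin ligase subunit that marks iron regulatory protein 2 for degradation, averaged 80.5 ± 9.27, 83.2 ± 5.5 and 91.9 ± 5.55 CPM and was 0.14 higher after RGLS4326 than in PBS (adjusted p = 0.0389). That call was lost with the length offset (0.09, adjusted p = 0.148), the replicate block (0.15, adjusted p = 0.0577) and the no-gene covariate (0.155, adjusted p = 0.154). It was also lost in sets 1 (0.12, adjusted p = 0.374), 2 (0.11, adjusted p = 0.263) and 3 (0.21, adjusted p = 0.306) alone.

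Of 16 heme and mitochondrial iron genes, 3 were higher and 10 lower in PBS than in UNT, and 1 was higher and 3 lower after RGLS4326 than in PBS. *Hp*, which encodes the hemoglobin scavenger haptoglobin, ranged from 1.74 to 8.99 CPM in UNT, 46.0 to 361.1 in PBS (median 139.5) and 12.2 to 79.4 in RGLS4326 kidneys (median 26.8). Treated mice overlapped only the lower PBS mice and stayed above all UNT mice. The difference was 4.78 ± 0.395 (SE) between PBS and UNT and -1.92 ± 0.357 between RGLS4326 and PBS (edgeR adjusted p = 0.00115). *Cd163*, the macrophage receptor for the haptoglobin-hemoglobin complex, averaged 1.72 ± 0.622, 21.7 ± 11 and 14.9 ± 5.58 CPM (3.64, adjusted p = 4.44e-15, and -0.55, adjusted p = 0.0706). *Slc48a1*, a lysosomal heme transporter, averaged 182.7 ± 6.19, 174.5 ± 22.7 and 145.5 ± 23 CPM and was 0.26 lower after RGLS4326 than in PBS (adjusted p = 0.00855).

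**Figure D5:**
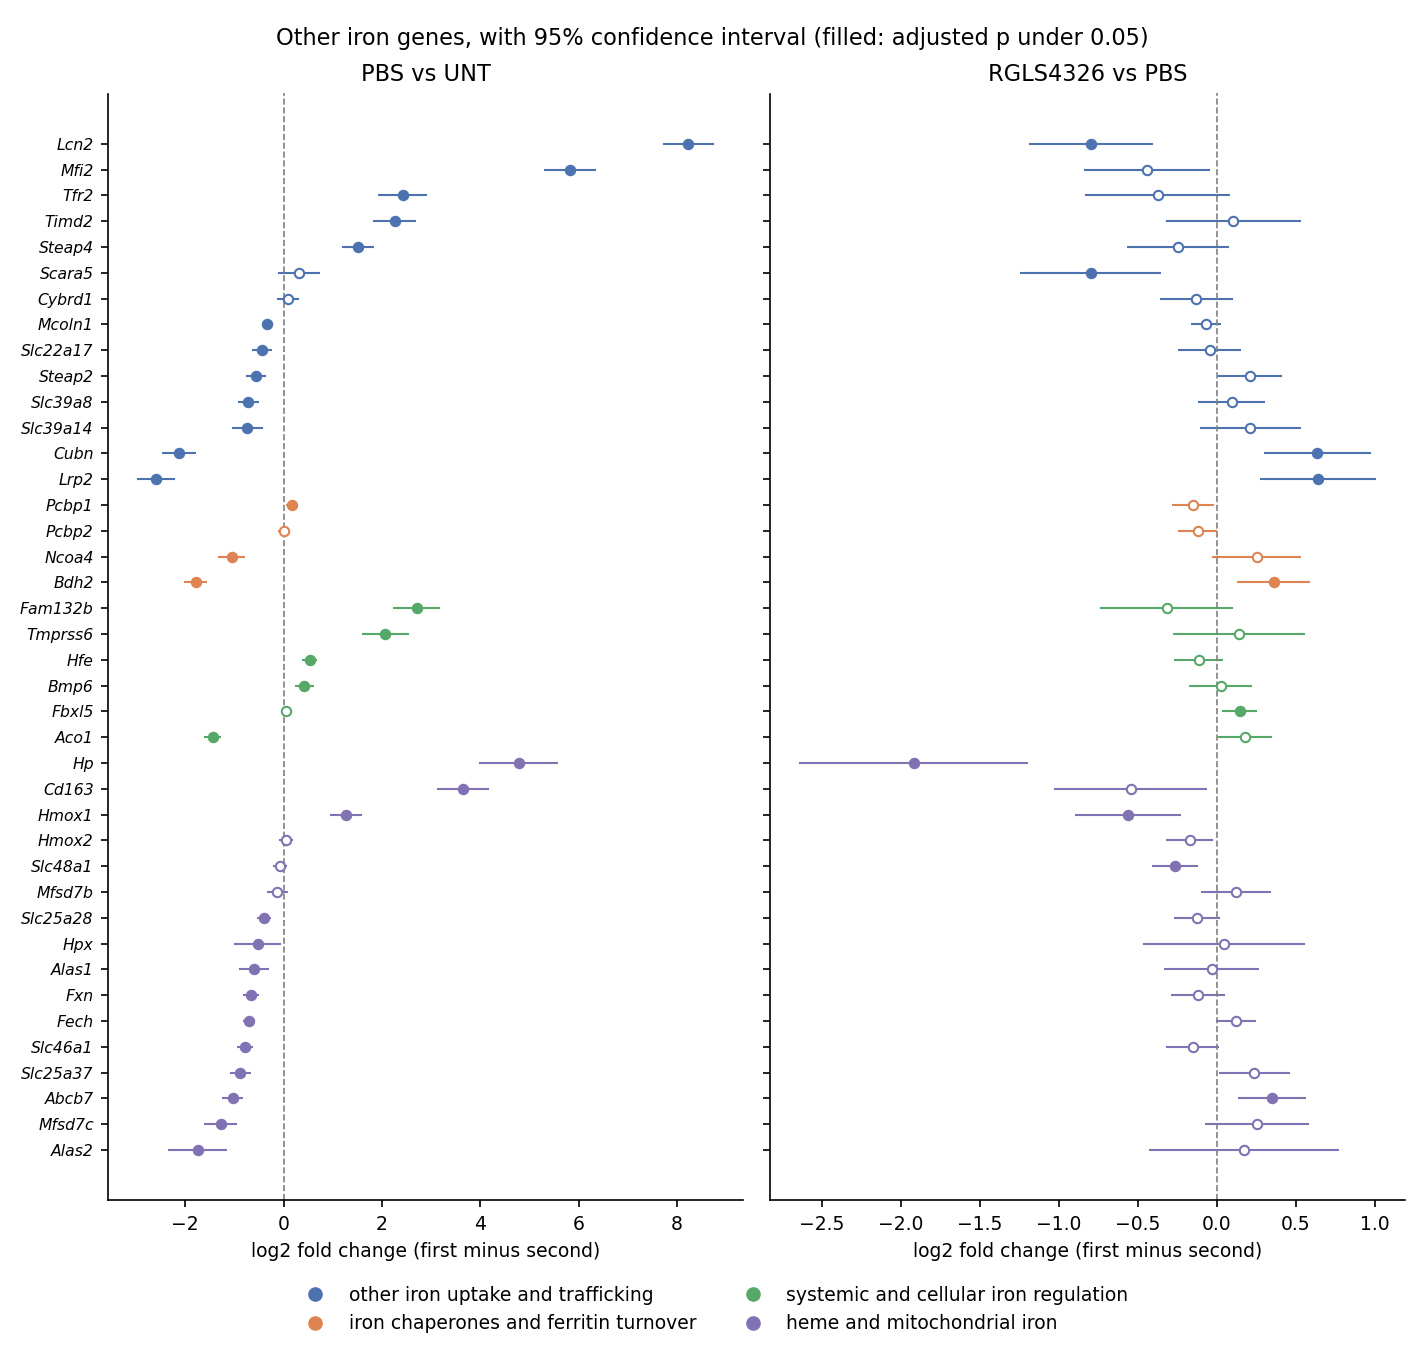
Fitted log2 fold change with 95% confidence interval (horizontal axis) of the 40 other tested iron genes, coloured by list, for PBS against UNT and RGLS4326 against PBS, filled points having an edgeR adjusted p under 0.05. The scales of the panels differ: *Lcn2* stands at 8.23 on the left, and *Hp* at -1.92 on the right.

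Across the 34 mice, after each group's mean was subtracted, the tested gene whose log2(CPM + 1) followed each member most closely was *Pum2* for *Ireb2* (Pearson r = 0.952), *Rpl28* for *Ftl1* (0.925), *Gpx1* for *Fth1* (0.883), *Sema5a* for *Heph* (0.861) and *4632428N05Rik* for *Trf* (0.857). It was *Spon1* for *Cp* (0.839), *Api5* for *Tfrc* (0.796), *Sall3* for *Slc40a1* (0.768), *Osr2* for *Slc11a2* (0.716) and *3110009E18Rik* for *Steap3* (0.636). Within the members, *Ftl1* and *Ireb2* ran against each other (r = -0.894), and *Fth1* and *Ftl1* together (r = 0.655). These values describe mice that share library sets and the length trend above, and carry no p.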

How the data were processed

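Kidney poly(A) RNA of 34 mice was sequenced from stranded libraries as paired-end reads. The authors trimmed reads with Trim Galore, aligned them with STAR to GRCm38 and tallied reads that mapped to 1 place per gene with HTSeq 0.6.1, per the study's methods and the submitters' processing notes (FastQC 0.11.2, SAMtools 1.1 and Picard 1.119 are also named). The gene annotation and the strand setting are not given in the sources used here. Each mouse had 1 table, in which the authors deposited unnormalised counts by gene symbol, and no 2 tables were identical (0 pairs). Each table ended with 5 counter totals, kept out of library sizes.

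Counts were filtered with filterByExpr, scaled by TMM and fitted for all 34 libraries in edgeR 4.0.16 (R 4.3.3) with group as the only term. Quasi-likelihood tests gave 3 comparisons over 15644 genes, two-sided, with Benjamini-Hochberg adjustment and a call at 0.05. Intervals cover 95%. CPM used TMM-scaled library sizes. The procedure was tested on simulated data. p-values measure the spread between the labelled samples, each taken as 1 mouse. Alternatives were other scalings, no filter, DESeq2 1.42.0, other samples or terms and, added after the data were seen, each library left out and an offset for transcript length. Members and lists were chosen with earlier results of these data known. All members, and of the other iron genes the 2 called with the smallest p per list in PBS against UNT and in RGLS4326 against PBS, and any untested, are named. Of the members' exons, GENCODE has *Trf* share 63.5% of its exonic length with *Gm20425* and *Ftl1* 8.13% with *Gm22133* on the same strand, and on the opposite strand *Ftl1* 26.5% with *Gm10252*, *Slc11a2* 6.33% with *Gm5475*, *Cp* 1.13% with *Hps3* and *Heph* 0.38% with *Hsf3*. Ferritin pseudogenes may take or lose reads, so these counts are uncertain to that extent. Sequences came from GENCODE M21 and RefSeq with Python 3.11.15. The values of 1 red cell marker are not reported here.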

Additional observations from a re-analysis of the deposited data

How the results depend on the processing

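Of 360 planned repeats of a member's difference, 318 kept direction and side of the threshold, 28 lost the call, 3 gained it and 11 changed sign. The sign changed between PBS and UNT for *Heph* (totals alone 0.24, set 1 0.11, set 2 0.0264) and *Ftl1* (totals alone 0.13, set 3 0.15), between RGLS4326 and PBS for *Steap3* (set 2, 0.15), *Cp* (no-gene covariate 9e-04, set 3 0.30) and *Fth1* (no-gene covariate 0.0019, set 1 0.19, and, added later, length offset 0.0157), and between RGLS4326 and UNT for *Ireb2* (set 2, 0.0257). Between RGLS4326 and PBS the members called were 1 with the no-gene covariate and 0 in sets 1 and 3, and all genes called were 89, 54 and 0, with 3199, 3421 and 2826 at an unadjusted p under 0.05, while set 2 gave 5 members and 4065 genes. The cause was not tested. Between PBS and UNT, 9, 9 and 6 members and 11408, 11389 and 10153 genes were called in sets 1, 2 and 3. Between RGLS4326 and UNT, 8 were called with totals alone, 9 with the no-gene covariate and 10, 9 and 8 in sets 1, 2 and 3 (12619, 11979, 11145, 10235 and 8743 genes). Without each library in turn, members called ranged from 8 to 9, 4 to 6 and 10 to 10 in PBS against UNT, RGLS4326 against PBS and RGLS4326 against UNT, and all genes from 12712 to 12916, 4023 to 6209 and 12008 to 12379. Without PBS replicate 9, 4 members were called between RGLS4326 and PBS. *Cp* between RGLS4326 and PBS, which was not called, ranged in sign (-0.09 to 0.04). Totals alone moved the median of all genes by 0.293 between PBS and UNT and 0.303 between RGLS4326 and UNT, and the share of calls that were higher from 52.5% to 68.6% and 72.5%. The mice share only replicate numbers: deviations correlated above 0.1 in 2, 5 and 3 of 11 pairs. With a replicate block 8, 6 and 10 members and 12781, 5098 and 12162 genes were called, and no member's call changed, while of the other iron genes *Fbxl5* (RGLS4326 against PBS) and *Hpx* (PBS against UNT) lost theirs.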
